A study of Mus musculus with 11 samples.

Results

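The average effect of Cxcr6 deletion and mouse line on hepatocyte RNA was measured across both states of Nemo, from 6 arrays of Cxcr6-deficient mice and 5 arrays of Cxcr6-intact mice, which are all 11 arrays of the series. The arrays were chosen by their titles: every array whose title names the Cxcr6 knockout against every array whose title does not. The hepatocytes came from 12-week-old male mice of 4 genotypes. Cxcr6 KO (n = 3) lacks Cxcr6, double KO (n = 3) lacks Cxcr6 and also lacks Nemo in the liver, Nemo KO (n = 3) lacks Nemo in the liver only, and wildtype (n = 2) is titled as neither. Nemo KO is written NemoLPC-KO in the titles. The source names call the Cxcr6-deficient samples Nemo_CXCR6 and the others Nemo, with cre+ where Nemo was deleted and cre- where it was not, so wildtype and Cxcr6 KO are the cre- members of these lines. The promoter that drives Cre, the origin of each line and the part of Cxcr6 that was removed are not given in the sources used here. Because every Cxcr6-deficient sample carries one line name and every Cxcr6-intact sample the other, Cxcr6 state and line cannot be told apart, and each difference described here belongs to both together. The labels name no treatment.

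Cxcr6 is a chemokine receptor carried by natural killer T cells, T cells and other lymphocytes, and its ligand Cxcl16 is made in the liver by endothelial cells, macrophages and other cells. Lines kept apart can differ in inherited variants, and such variants lie in blocks along chromosomes, which is why the chromosomal place of each gene is given. Nemo, whose gene symbol is Ikbkg, is the regulatory subunit of the kinase complex that activates NF-kB, and its loss in hepatocytes is known to cause liver injury. The comparison asks which RNAs separate the Cxcr6-deficient line from the other once the Nemo state is accounted for.

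The values were log2 signals, on which a difference of 1 is a doubling. Hepatocyte identity was high on every array: the mean log2 signal of 16 hepatocyte markers lay between 17.55 and 17.84 over the 11 arrays, and that of Alb, the albumin gene, had genotype means between 19.87 and 19.93, near the ceiling of 19.93. The mean of 22 endothelial markers lay at 6.68 to 6.76 in wildtype, 6.97 to 7.34 in Nemo KO, 6.22 to 6.74 in Cxcr6 KO and 7.61 to 8.30 in double KO. Both wildtype arrays correlated with each other at r = 0.984 across all values, below the mean correlations of 0.990 to 0.994 with arrays of the same genotype elsewhere. The labels call the replicates biological but do not say that each is a separate mouse, so p-values measure the spread between these samples. The Cxcr6 gene itself did not separate the groups. Cxcr6 had log2 signals of 5.35 and 5.47 in wildtype, 4.98, 5.30 and 5.25 in Nemo KO, 5.29, 5.56 and 5.09 in Cxcr6 KO and 5.29, 4.94 and 5.31 in double KO, all near the array medians of 5.19 to 5.38, and the groups overlapped (difference -0.04 ± 0.11, adjusted p = 0.886). Where the probes lie relative to the deleted part was not known, so this value does not check the labels.

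Of 18337 genes tested, 106 (0.578%) differed between the Cxcr6-deficient and Cxcr6-intact arrays at an adjusted p of 5% in limma, with the Nemo state as a covariate. The higher genes outnumbered the lower: 83 (0.453%) were higher in the Cxcr6-deficient arrays and 23 (0.125%) were lower. The size of the difference ranged from 1.22-fold to 35.5-fold with a median of 1.86-fold, and 46 of the 106 reached 2-fold. All 6 Cxcr6-deficient arrays lay above or below all 5 others for 59 of the 106 genes, while the other 47 overlapped. Over all genes tested, 192 (1.05%) did not overlap, with the Cxcr6-deficient arrays above for 133 (0.725%) and below for 59 (0.322%). An unadjusted p under 0.05 was found for 2596 genes (14.2%). The count of 106 moved with single arrays: it was 35 without double KO replicate 2, 37 without Cxcr6 KO replicate 3, 49 without Cxcr6 KO replicate 2, 60 without Nemo KO replicate 1, 63 without double KO replicate 1, 69 without Nemo KO replicate 2 and 165 without Cxcr6 KO replicate 1. For 33 genes the call held without each of the 11 arrays in turn. Array values are also given below for genes outside these 33.

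Clec2h and Acpp had some of the widest rises of the comparison and lay near the array medians in Cxcr6-intact hepatocytes. Clec2h belongs to the Clec2 family of C-type lectins, whose products serve as ligands for NKR-P1 receptors of natural killer cells. Its log2 signals were 4.93 and 5.46 in wildtype, 5.43, 5.55 and 5.37 in Nemo KO, 8.64, 8.93 and 8.95 in Cxcr6 KO and 7.82, 8.70 and 7.04 in double KO. Every Cxcr6-deficient array thus lay above every other array by more than a whole log2 unit, and the difference was 2.95 ± 0.31 (SE), or 7.75-fold (adjusted p = 0.00265). Acpp, the prostatic acid phosphatase gene, had log2 signals of 5.41 and 5.11 in wildtype, 5.25, 5.32 and 5.20 in Nemo KO, 8.39, 8.72 and 8.86 in Cxcr6 KO and 6.96, 8.02 and 6.84 in double KO. The groups did not overlap, and Acpp rose by 2.63 ± 0.29 (adjusted p = 0.00331). For both genes the double KO arrays were lower than the Cxcr6 KO arrays, apart from Clec2h in double KO replicate 2, at 8.70, which lay above the lowest Cxcr6 KO array. The other Clec2 family, CD1d and NKG2D ligand genes did not pass: of 9 tested members of that list, Clec2h was the 1 called, and the median difference over the 9 was 0.07, against 0.01 over all genes tested. Clec2d, another family member, had a difference of -0.05 ± 0.28 with overlapping groups.

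**Figure D1:**
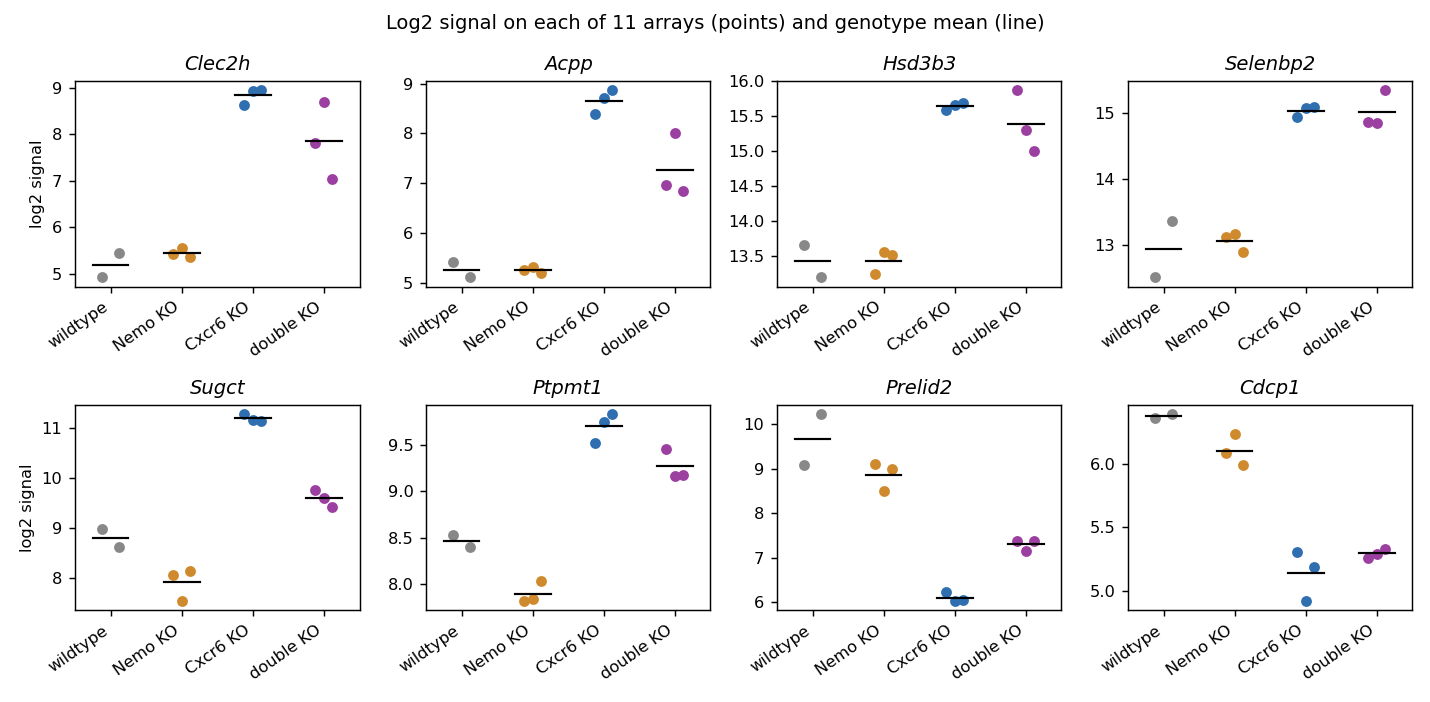
Log2 signal (vertical axis) of 8 genes in each of the 11 arrays (points) by genotype (horizontal axis), with the genotype mean as a line. Clec2h, Acpp, Hsd3b3, Selenbp2, Sugct and Ptpmt1 were higher in all 6 Cxcr6-deficient arrays than in the 5 others, and Prelid2 and Cdcp1 were lower in all 6; each panel has its own vertical scale, which does not start at 0.

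The steroid dehydrogenase gene Hsd3b3 and both selenium-binding protein genes separated the groups on every array. Hsd3b3 encodes a liver 3-beta-hydroxysteroid dehydrogenase, Selenbp1 a selenium-binding protein with methanethiol oxidase activity, and Selenbp2 its near copy in the mouse. Hsd3b3 had log2 signals of 13.65 and 13.19 in wildtype, 13.23, 13.55 and 13.51 in Nemo KO, 15.58, 15.66 and 15.69 in Cxcr6 KO and 15.87, 15.30 and 15.004 in double KO. The lowest Cxcr6-deficient array was far above the highest of the others, and Hsd3b3 rose by 2.08 ± 0.15 (adjusted p = 0.000322). Selenbp2 had log2 signals of 12.51 and 13.36 in wildtype, 13.11, 13.16 and 12.89 in Nemo KO, 14.93, 15.08 and 15.08 in Cxcr6 KO and 14.85, 14.84 and 15.34 in double KO. Its rise of 2.02 ± 0.15 (adjusted p = 0.000322) was 4.06-fold and nearly the same in both Nemo states, 1.96 with Nemo deleted and 2.10 with Nemo intact. Selenbp1 followed it across the arrays, with 12.99 and 13.76 in wildtype, 13.45, 13.48 and 13.17 in Nemo KO, 15.11, 15.33 and 15.32 in Cxcr6 KO and 15.01, 14.89 and 15.30 in double KO, a rise of 1.78 ± 0.14 (adjusted p = 0.00043). The groups of both genes were widely separated. As near copies they can share probe signal, so their values are not independent of each other.

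Over the 11 arrays, the tested genes most like Selenbp2 were Selenbp1 (Pearson r = 0.996), the unnamed model F830016B08Rik (0.960), Trim12a (0.950), Mir1948 (0.937) and Hfe (0.928). These correlations describe arrays that fall into separate groups, so a gene that separates the groups scores high whatever its place or role. Of these 5, Selenbp1 lies on chromosome 3 with Selenbp2 and the others lie on other chromosomes.

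The 250 bases before the annotated starts of Selenbp1 (chr3:94932833-94933082, plus strand) and Selenbp2 (chr3:94693323-94693572, plus strand) are printed because the genes moved together at nearly the same size. The sequences are RefSeq's, from assembly GRCm38.p6, and capitals mark bases with no identical partner in the other gene.
Selenbp1: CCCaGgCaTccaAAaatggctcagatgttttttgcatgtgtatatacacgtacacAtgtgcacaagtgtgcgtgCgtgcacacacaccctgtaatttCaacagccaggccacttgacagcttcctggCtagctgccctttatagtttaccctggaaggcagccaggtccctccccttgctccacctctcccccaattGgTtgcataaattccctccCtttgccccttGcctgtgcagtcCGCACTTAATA
Selenbp2: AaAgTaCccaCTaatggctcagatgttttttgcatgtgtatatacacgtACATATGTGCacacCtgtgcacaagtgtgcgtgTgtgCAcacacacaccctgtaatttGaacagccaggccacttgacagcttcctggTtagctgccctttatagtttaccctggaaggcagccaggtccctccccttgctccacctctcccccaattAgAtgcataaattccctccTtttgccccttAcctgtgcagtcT
In the pairwise alignment 238 bases stood opposite each other and 223 of them (93.7%) were identical. This comparison of the reference assembly does not show what sequence either mouse line carries.

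Several genes of fatty acid oxidation were among the higher genes. Peroxisomal and omega-oxidation enzymes of this kind are known targets of the nuclear receptor Ppara. Of 34 tested members of the list of fatty acid oxidation genes and Ppara targets, 4 were called higher (Cyp4a31, Ehhadh, Acot3 and Acot4), against 0.453% of all genes, and none lower. The median difference over the 34 was 0.40, against 0.01 over all genes, and 29 of the 34 had a positive difference. The median was 0.35 between double KO and Nemo KO and 0.56 between Cxcr6 KO and wildtype. The latter was 0.78 without wildtype replicate 1 and 0.17 without wildtype replicate 2, where the average median was 0.22. Cyp4a31 encodes a fatty acid omega-hydroxylase. Its log2 signals were 14.15 and 12.53 in wildtype, 12.20, 13.56 and 11.66 in Nemo KO, 15.29, 15.07 and 15.26 in Cxcr6 KO and 15.16, 14.86 and 14.93 in double KO. The Cxcr6-deficient arrays were tightly grouped and above all others, which ranged widely, and the rise was 2.22 ± 0.36 (adjusted p = 0.0301). Its neighbour and near copy Cyp4a32 rose by 2.27 ± 0.33 (adjusted p = 0.0178), and the pair can share signal.

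Ehhadh encodes the bifunctional enzyme of peroxisomal beta-oxidation. It had log2 signals of 13.64 and 14.87 in wildtype, 13.65, 13.71 and 12.93 in Nemo KO, 15.44, 15.70 and 15.62 in Cxcr6 KO and 15.19, 14.90 and 15.30 in double KO. The highest other array, wildtype replicate 2, came within a few hundredths of the lowest Cxcr6-deficient array, and the rise was 1.54 ± 0.23 (adjusted p = 0.0178). Acot3 and Acot4, neighbouring acyl-CoA thioesterase genes, rose by 1.35 ± 0.25 (adjusted p = 0.0465) and 0.78 ± 0.13 (adjusted p = 0.034). Acot3 had 8.47 and 7.68 in wildtype, 6.42, 6.04 and 6.40 in Nemo KO, 8.93, 10.03 and 10.16 in Cxcr6 KO and 7.68, 7.19 and 7.39 in double KO. Its groups overlapped because wildtype lay above or level with double KO, although each Cxcr6-deficient genotype was above its partner of the same Nemo state. The cytochrome gene Cyp4a14 had the largest difference of the list, 2.67 ± 0.58, with overlapping groups (adjusted p = 0.0814), and Acot1 (1.29 ± 0.31) and Acot2 (1.64 ± 0.35) did not pass either.

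The calls of this group depended on single arrays. The call of Ehhadh was lost without double KO replicate 1 or 2 or Cxcr6 KO replicate 2 or 3, at an adjusted p of 0.0522 to 0.0565, and that of Cyp4a32 without double KO replicate 1 or 2, Cxcr6 KO replicate 3 or Nemo KO replicate 1, at 0.0524 to 0.0566. The call of Cyp4a31 held in 4 of the 11 fits that left out 1 array, and those of Acot3 and Acot4 in 1 of 11 each, with an adjusted p of up to 0.0858 for Cyp4a31, 0.117 for Acot3 and 0.0927 for Acot4. Their differences stayed positive throughout, at 1.37 to 1.78 for Ehhadh, 1.98 to 2.56 for Cyp4a31, 1.17 to 1.49 for Acot3 and 0.72 to 0.87 for Acot4. The number of list members called was 0 without double KO replicate 1 or 2 or Cxcr6 KO replicate 2 or 3, 1 without double KO replicate 3, Nemo KO replicate 1 or wildtype replicate 2, 2 without Nemo KO replicate 2 or 3 and 6 without wildtype replicate 1. It was also 0 with no Nemo term and 1 with the replicate number as a block or with no filter on low signals.

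The upstream sequences of Acot3 (chr12:84051894-84052143, plus strand) and Acot4 (chr12:84038129-84038378, plus strand) are printed because these neighbouring genes were called together. They are the 250 bases before each start in RefSeq's GRCm38.p6, and capitals mark AGGTCA, the half-site letters bound by many nuclear receptors, searched on both strands.
Acot3: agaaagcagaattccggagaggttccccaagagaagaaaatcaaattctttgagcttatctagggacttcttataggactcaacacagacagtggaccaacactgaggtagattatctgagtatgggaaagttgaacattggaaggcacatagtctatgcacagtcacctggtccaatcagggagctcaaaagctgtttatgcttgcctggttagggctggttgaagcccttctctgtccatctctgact
Acot4: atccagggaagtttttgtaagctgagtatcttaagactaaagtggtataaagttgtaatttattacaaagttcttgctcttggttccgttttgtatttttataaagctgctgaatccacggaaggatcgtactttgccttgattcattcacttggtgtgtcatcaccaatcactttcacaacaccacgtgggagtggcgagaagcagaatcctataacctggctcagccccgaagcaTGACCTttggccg
Acot4 holds the letters once, as TGACCT near its start, and Acot3 holds none in this window. Across the table of 32851 upstream windows of this length, 4607 (14.0%) hold AGGTCA, as do 6 of the 28 windows (21.4%) that could be matched to list members. A match is a description of letters, not of binding.

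Further enzymes of metabolism and detoxification were higher. Sugct, which transfers coenzyme A to glutarate, had log2 signals of 8.97 and 8.61 in wildtype, 8.06, 7.54 and 8.13 in Nemo KO, 11.28, 11.16 and 11.14 in Cxcr6 KO and 9.76, 9.60 and 9.41 in double KO. All 6 Cxcr6-deficient arrays were above the 5 others, with Cxcr6 KO above double KO, and the rise was 2.00 ± 0.17 (adjusted p = 0.000553). The theta-class glutathione transferase gene Gstt2 rose by 1.42 ± 0.21 (adjusted p = 0.0192), its Cxcr6-deficient arrays between 9.74 and 11.01 and the others between 8.46 and 9.25. That call was lost without double KO replicate 2 or Cxcr6 KO replicate 3 (adjusted p = 0.0557 and 0.0544). Its neighbour Gstt1, named after its values were seen, rose by 1.05 ± 0.13 (adjusted p = 0.00671) without overlap. Alad, which encodes an enzyme of haem synthesis, rose by 1.42 ± 0.24 (adjusted p = 0.0369), with 12.48 to 13.75 in the Cxcr6-deficient arrays and 10.90 to 12.13 in the others, but its call held in only 2 of the 11 fits that left out 1 array. Adh6-ps1 is annotated as a pseudogene of the alcohol dehydrogenase family and can carry signal of its relatives. Its signal rose by 2.89 ± 0.35 (adjusted p = 0.00568), from 6.68 to 8.90 in the Cxcr6-intact arrays to 10.32 to 11.26 in the others.

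Pik3c2a, Bcl2l13 and Bid were higher as well. Pik3c2a, a lipid kinase of membrane traffic, had log2 signals of 9.66 and 9.26 in wildtype, 9.51, 9.68 and 9.19 in Nemo KO, 11.10, 10.78 and 11.20 in Cxcr6 KO and 11.46, 11.71 and 10.92 in double KO. It separated the groups by more than a log2 unit and rose by 1.75 ± 0.17 (adjusted p = 0.00118). Bcl2l13, a Bcl-2 family protein of the mitochondrial outer membrane, and Bid, which links death receptors to mitochondria, lie next to each other on chromosome 6 and both rose, by 1.42 ± 0.17 (adjusted p = 0.00568) and 0.84 ± 0.12 (adjusted p = 0.0168). Bcl2l13 lay at 9.62 to 10.65 in the Cxcr6-deficient arrays against 8.55 to 9.02 in the others, and Bid at 6.66 to 7.58 against 6.02 to 6.47. Neither overlapped, and both calls held without each array in turn. Bid was the 1 called of 27 tested death receptor, caspase and necroptosis genes, against 0.578% of all genes, and their median difference was 0.14.

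Several genes outside the naming rule or below its largest differences were as cleanly separated, and these were chosen after their values were seen. Ptpmt1, a mitochondrial phosphatase needed for cardiolipin synthesis, had 8.53 and 8.40 in wildtype, 7.81, 7.84 and 8.03 in Nemo KO, 9.52, 9.75 and 9.84 in Cxcr6 KO and 9.46, 9.17 and 9.18 in double KO. It rose by 1.32 ± 0.09 (adjusted p = 0.000177), one of the smallest adjusted p-values of the comparison. The autophagy kinase gene Ulk2 rose by 1.16 ± 0.11, Hfe, which takes part in sensing iron, by 0.90 ± 0.10, the aldo-keto reductase gene Akr1e1 by 1.01 ± 0.10 and the protease inhibitor gene Mug2 by 0.89 ± 0.08. None of these overlapped between the groups. Mug2 lay at 17.64 to 18.09 in the Cxcr6-intact arrays and 18.52 to 19.07 in the Cxcr6-deficient ones, close enough to the ceiling for its difference to be compressed.

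The TRIM genes of chromosome 7 belong to the loci known to vary between laboratory mouse strains, as does the energy-linked transhydrogenase gene Nnt. Of 17 tested genes on that list, Trim12a and Trim30d were called, both higher, against 0.453% of all genes, and the median difference was 0.20. Trim12a, of a family that restricts retroviruses, had 6.54 and 6.74 in wildtype, 6.67, 6.49 and 6.48 in Nemo KO, 7.61, 7.46 and 7.60 in Cxcr6 KO and 7.85, 7.98 and 7.96 in double KO. Its groups were narrow and apart, and it rose by 1.18 ± 0.10 (adjusted p = 0.000553). Trim30d rose by 0.89 ± 0.15 (adjusted p = 0.0301), although that call held in only 5 of 11 fits that left out 1 array, with an adjusted p of up to 0.0867. The neighbour Trim5, adjacent to Trim12a, rose by 0.66 ± 0.10 (adjusted p = 0.0218), a call that held in 5 of 11. Members of this cluster are similar in sequence and can share signal. Nnt, which carries a known deletion in some C57BL/6 substrains, did not separate the groups (0.16 ± 0.16, adjusted p = 0.665), with 10.81 to 11.50 in the Cxcr6-intact arrays and 11.17 to 11.88 in the others.

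Fewer genes were lower in the Cxcr6-deficient arrays, and 2 of the named ones kept their call without each array in turn: Cdcp1 and Crym. Cdcp1, a transmembrane substrate of Src-family kinases, had 6.36 and 6.39 in wildtype, 6.08, 6.24 and 5.99 in Nemo KO, 5.30, 4.92 and 5.19 in Cxcr6 KO and 5.26, 5.29 and 5.33 in double KO. The groups did not overlap and it fell by 1.00 ± 0.10 on the log2 scale (adjusted p = 0.00211), to the level of the array medians. Crym, which binds thyroid hormone in the cytosol, fell by 0.53 ± 0.06 (adjusted p = 0.00411), from 6.53 to 6.92 down to 5.92 to 6.40, without overlap.

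The predicted gene Gm3704 on chromosome 5, named after its values were seen, had the smallest adjusted p of the comparison. Its log2 signals were 7.77 and 7.58 in wildtype, 7.67, 7.44 and 7.66 in Nemo KO, 5.43, 5.11 and 5.43 in Cxcr6 KO and 5.21, 5.13 and 5.38 in double KO. The groups were narrow and more than a log2 unit apart, and the fall was -2.35 ± 0.09 (adjusted p = 1.56e-06), nearly the same in both Nemo states.

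Prelid2, a gene of the PRELI family of mitochondrial lipid-transfer proteins, had the widest fall among the named genes. Its log2 signals were 9.09 and 10.23 in wildtype, 9.11, 8.49 and 8.99 in Nemo KO, 6.23, 6.03 and 6.07 in Cxcr6 KO and 7.38, 7.15 and 7.39 in double KO. All 6 Cxcr6-deficient arrays lay more than a log2 unit below the others, with double KO above Cxcr6 KO, and the fall was -2.44 ± 0.36 (adjusted p = 0.0183). Its call was lost without double KO replicate 2 or Cxcr6 KO replicate 2 or 3, at an adjusted p of 0.0557 to 0.0565. The ubiquitin ligase gene Lnx1 fell by 1.39 ± 0.25 (adjusted p = 0.0428) without overlap, from 6.27 to 8.16 in the Cxcr6-intact arrays to 5.49 to 6.05.

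The other lower named genes included a cytokine receptor and genes of secreted liver proteins. Lifr, the receptor for leukaemia inhibitory factor, had 15.50 and 14.72 in wildtype, 14.75, 14.88 and 14.03 in Nemo KO, 14.03, 14.02 and 13.88 in Cxcr6 KO and 13.66, 13.71 and 13.14 in double KO. The groups met at 14.03, and the fall was -1.09 ± 0.19 (adjusted p = 0.0396). Orm2, an acute-phase glycoprotein gene, had 13.17 and 13.81 in wildtype, 14.97, 14.37 and 15.36 in Nemo KO, 12.02, 12.66 and 12.41 in Cxcr6 KO and 13.90, 13.58 and 14.09 in double KO. Each Cxcr6-deficient genotype lay below its partner of the same Nemo state while double KO overlapped wildtype, and Orm2 fell by 1.08 ± 0.20 (adjusted p = 0.0496). Serpina10, an inhibitor of coagulation proteases, fell by 0.63 with overlapping groups (adjusted p = 0.0396). The kinase gene Riok3 (-0.64), the cohesin acetyltransferase gene Esco1 (-0.60), Gprin3 (-0.62) and the sorting nexin gene Snx29 (-0.58) were lower by less. The calls of Lnx1, Lifr, Serpina10, Riok3 and Gprin3 each held in only 2 of 11 fits that left out 1 array, that of Esco1 in 3, that of Orm2 in 1 and that of Snx29 in 0, with an adjusted p of up to 0.132 for Orm2. Their differences kept their sign in all 11.

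The effect was seen in both Nemo states. Every one of the 106 genes had the same sign in double KO against Nemo KO as in Cxcr6 KO against wildtype, 2 comparisons that share no array. The call averages both, so a gene of opposite signs could rarely enter the 106. With a mean per genotype fitted over all 11 arrays, 109 genes (0.594%) were called between double KO and Nemo KO and 47 (0.256%) between Cxcr6 KO and wildtype, and 21 of the 106 were called in both. Those 21 include Clec2h, Acpp, Hsd3b3, Selenbp1, Selenbp2, Sugct, Ptpmt1, Trim12a, Ulk2, Hfe, Mug2, Cdcp1 and Prelid2. When each state was fitted on its own arrays, 11 genes (0.06%) were called with Nemo deleted and 0 with Nemo intact. The corresponding unadjusted p under 0.05 was found for 2903 genes (15.8%) and 1806 genes (9.85%) in limma. The 11 genes called with Nemo deleted were Cyp4a14, F830016B08Rik, Gm12397, Gm3704, Mug2, Olfr1034, Ptpmt1, Selenbp1, Selenbp2, Trim12a and Ulk2. All 11 had the same sign on the 5 Nemo-intact arrays, which had no part in choosing them, and 10 of the 11 had an unadjusted p under 0.05 there.

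**Figure D2:**
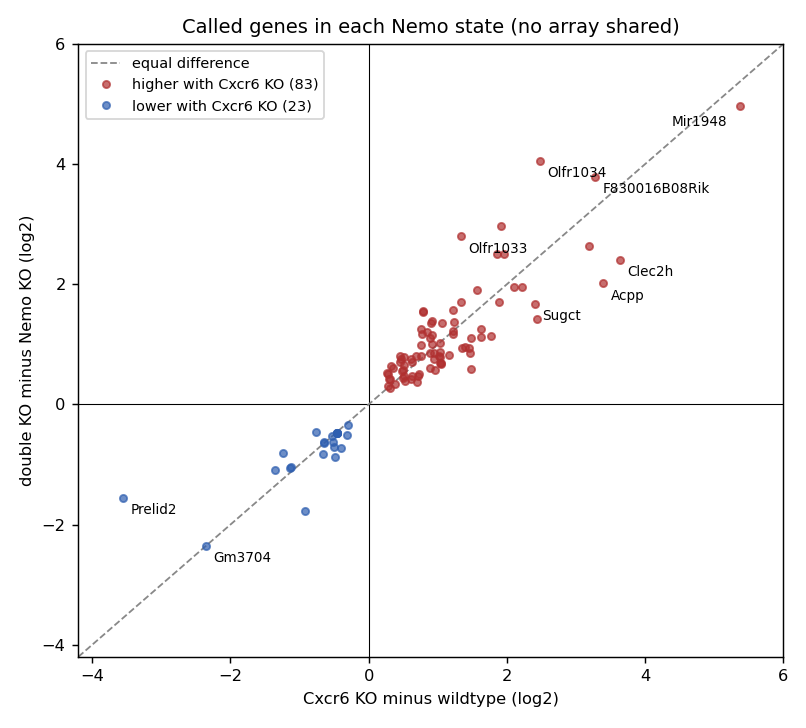
Difference between Cxcr6 KO and wildtype (horizontal axis, log2) against the difference between double KO and Nemo KO (vertical axis, log2) for the 106 called genes, 83 higher and 23 lower; the dashed line marks equal differences. All points lie in the quadrants of equal sign, with Clec2h, Acpp, Sugct and Prelid2 farther from 0 where Nemo was intact and Olfr1034 and Olfr1033 farther from 0 where Nemo was deleted.

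No gene passed the test of a difference between the Nemo states: 0 of 18337 in limma, with 2155 (11.8%) at an unadjusted p under 0.05. That count rested on single arrays, being 7 without double KO replicate 1 and 1 without double KO replicate 3 or Nemo KO replicate 3. It was higher without either wildtype array. Those fits leave 1 wildtype array, which adds no spread of its own, so their counts are not given. Among the 106 genes, 12 had an unadjusted interaction p under 0.05, at an adjusted p of 0.251 to 0.399. Prelid2 fell by 3.55 with Nemo intact and by 1.56 with Nemo deleted on the log2 scale. Acpp rose by 3.40 and 2.02, and Clec2h by 3.64 and 2.40. Aqp4, a water channel gene, was higher by 1.49 with Nemo intact and by 0.59 with Nemo deleted, the latter without passing the test (adjusted p = 0.0577). In the other direction Trim12a rose by 0.92 with Nemo intact and by 1.38 with Nemo deleted. Akr1c18, a steroid dehydrogenase gene outside the 106 (average 1.35 ± 0.37, adjusted p = 0.167), had 5.88 and 6.12 in wildtype, 5.54, 5.28 and 5.54 in Nemo KO, 6.19, 6.12 and 6.12 in Cxcr6 KO and 8.17, 7.96 and 7.14 in double KO. Its high values were confined to the double KO arrays, the difference being 2.31 with Nemo deleted and 0.15 with Nemo intact (interaction adjusted p = 0.251).

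Among genes with a symbol the calls were unevenly spread over the chromosomes, and chromosome 18 held the largest share. There 10 of 429 tested genes (2.33%) were called, 6 higher and 4 lower, against 0.578% of all genes. Next came chromosome 12 with 8 of 706 (1.13%), chromosome 6 with 9 of 948 (0.949%) and chromosome 2 with 13 of 1562 (0.832%). The 13 on chromosome 2 include 5 rows named for Mir466b with identical values on every array. Those 5 are 1 measurement, so the share of separate profiles called there is smaller. Chromosomes 8 and 17 had 0 of 954 and 0 of 820. Probe sets with no symbol, in a fit of all probe sets, were called on chromosomes 8 and 17 too, in 18 of 806 and 13 of 647, against 1.76% of all such probe sets. The 274 called probe sets with no symbol hold only 109 distinct profiles, 1 of them shared by 63 probe sets. The counts on chromosomes 8 and 17 need therefore not be separate signals. At an unadjusted p under 0.05 in limma, chromosome 8 had 118 of 954 genes with a symbol (12.4%) and chromosome 17 had 75 of 820 (9.15%). Both shares were below the 14.2% of all genes, while chromosome 18 had 93 of 429 (21.7%). By the measure of non-overlapping arrays, chromosome 18 again led, with 16 of 429 genes (3.73%) against 1.05% overall. Chromosome 18 had the largest share called under each of the 22 alternatives tried, from 0.932% to 4.425% of its genes. The share was 0.932% without double KO replicate 2, Cxcr6 KO replicate 2 or Cxcr6 KO replicate 3, and 1.166% without Nemo KO replicate 1.

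**Figure D3:**
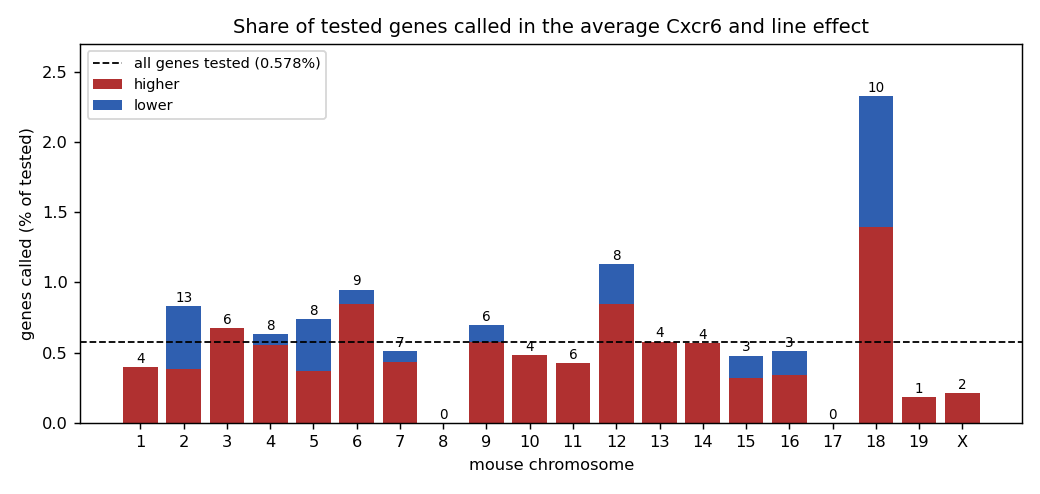
Share of tested genes called in the average effect (vertical axis, percent) for each mouse chromosome (horizontal axis), divided into higher and lower genes, with the number called above each bar and the share over all genes (0.578%) as a dashed line. Chromosome 18 stands above the others at 2.33%, and chromosomes 8 and 17 have no called gene.

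On chromosome 18 the genes did not form 1 block. In order along the chromosome they were Esco1, Riok3, Mir1948, Aqp4, Dsg2, Prelid2, F830016B08Rik, 1500015A07Rik, Hdhd2 and Haus1, at places 36 to 388 among 425 ordered tested genes. Esco1, Riok3, Mir1948, Aqp4 and Dsg2 (a desmosomal cadherin) took places 36, 44, 52, 66 and 78. Hdhd2 and Haus1, a subunit of the augmin complex of the spindle, lay at 384 and 388. Mir1948, F830016B08Rik, 1500015A07Rik and Haus1 kept their call without each array in turn. Of the 11 fits that left out 1 array, Prelid2 kept its call in 8 and Aqp4 in 5. Esco1, Dsg2 and Hdhd2 each kept theirs in 3, and Riok3 in 2. Mir1948 and F830016B08Rik, both outside the naming rule, had the largest rises of the comparison. The row named for Mir1948 had log2 signals of 5.57 and 5.58 in wildtype, 6.17, 6.64 and 6.45 in Nemo KO, 11.50, 10.92 and 10.43 in Cxcr6 KO and 10.91, 12.59 and 10.68 in double KO, a rise of 5.15 ± 0.33 (35.5-fold, adjusted p = 0.000177). F830016B08Rik had 9.53 and 10.51 in wildtype, 9.78, 9.34 and 9.67 in Nemo KO, 13.83, 13.01 and 13.07 in Cxcr6 KO and 12.92, 13.95 and 13.31 in double KO, a rise of 3.57 ± 0.25. For both, no array lay between the groups. The signal of a whole-transcript array at a microRNA locus is that of the primary transcript or of any transcript over it, not of the mature microRNA.

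Elsewhere some called genes lay near one another. Of the 105 called genes that could be ordered, 42 had another called gene within 10 tested genes and 17 had 1 directly beside them. The matching share over all genes tested was not computed, so these counts do not measure grouping. They include rows named for Mir466b with identical values and pairs of near copies that can share signal. Pairs in the same direction included Bcl2l13 and Bid, Acot3 and Acot4, Gstt1 and Gstt2, Cyp4a31 and Cyp4a32, Tm7sf3 and Med21, and Trim5 and Trim12a. On chromosome 5, Gm3704 and its direct neighbour 1700028E10Rik were both lower, the latter with a difference of -0.58 ± 0.08 (adjusted p = 0.0112). On chromosome 12, 6 of the 8 called genes (Ppm1a, Hif1a, Mthfd1, Acot4, Acot3 and Dlst) lay between places 285 and 389 of 696 and were all higher. This stretch was named after the calls were seen. Of the 11 fits that left out 1 array, Hif1a kept its call in 7, Ppm1a in 3 and Mthfd1 in 2. Acot4, Acot3 and Dlst each kept theirs in 1. Hif1a, the oxygen-regulated transcription factor gene, rose by 0.54 ± 0.08 (adjusted p = 0.0203) without overlap. In windows of 20 consecutive tested genes, 4 or more called genes were found in only 2 places, both on chromosome 2. The first held the olfactory receptor genes Olfr1032, Olfr1033, Olfr1034 and Olfr1036, all higher. Olfr1034 had 5.45 and 5.54 in wildtype, 5.16, 4.65 and 5.30 in Nemo KO, 8.29, 7.35 and 8.28 in Cxcr6 KO and 9.60, 8.42 and 9.24 in double KO, a rise of 3.35 ± 0.34 (adjusted p = 0.00211) with clear separation. Olfr1033 rose by 2.15 ± 0.30, Olfr1032 by 1.23 ± 0.18 and Olfr1036 by 1.22 ± 0.18. The call of Olfr1034 held without each array in turn, whereas those of Olfr1032 and Olfr1033 were lost without double KO replicate 2 (adjusted p = 0.0557 for both) and those of Olfr1032 and Olfr1036 without Cxcr6 KO replicate 3 (0.0565 and 0.055).

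The other window held rows named for Mir466b-4, Mir466b-5, Mir466b-6 and Mir466b-7, hairpins of a repeated microRNA cluster within the gene Sfmbt2. These rows and that of Mir466b-1 carried identical values on every array, so the 5 are 1 measurement, and the 106 genes hold 102 distinct profiles. Their log2 signals were 6.49 and 6.38 in wildtype, 6.71, 6.97 and 6.74 in Nemo KO, 6.04, 6.002 and 5.88 in Cxcr6 KO and 6.38, 6.26 and 6.38 in double KO, a fall of -0.46 ± 0.07 (adjusted p = 0.0168). Wildtype replicate 2 met the highest double KO arrays at 6.38. The rows of Mir669a-2 and Mir297a-3, in the same cluster, fell by 0.70 ± 0.13 and 0.76 ± 0.14. The Mir466b call was lost without double KO replicate 2 (adjusted p = 0.0557) or Cxcr6 KO replicate 3 (0.0532).

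The surroundings of Cxcr6 on chromosome 9 held 1 called gene. Among the 50 tested genes before it and the 4 after it, Cdcp1 was the 1 called of 54, lying 8 tested genes away, against 0.578% of all genes. An unadjusted p under 0.05 was found for 5 of the 54, against 14.2% of all genes: Rpsa, 5830454E08Rik, Cdcp1, Lars2 and 2010315B03Rik. The differences of Lars2, a mitochondrial leucyl-tRNA synthetase gene, and 2010315B03Rik were -0.18 ± 0.05 and -0.31 ± 0.08, and neither passed (adjusted p = 0.177 and 0.153). Cdcp1 was the called neighbour in the comparison as described and the count was 1 under each alternative tried. Cxcl16, the ligand gene, had a difference of 0.09 ± 0.13 (adjusted p = 0.781), with overlapping groups, and Ikbkg one of -0.19 ± 0.14 (adjusted p = 0.546).

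**Figure D4:**
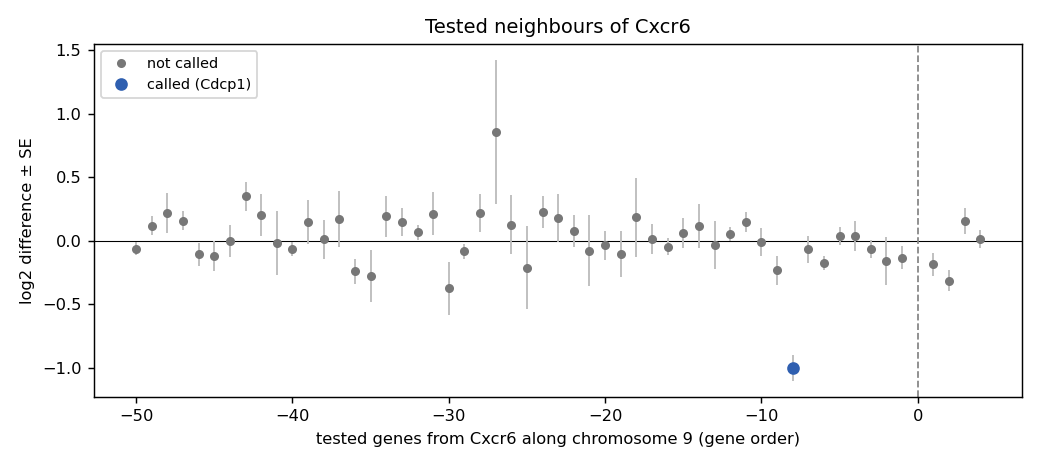
Difference between Cxcr6-deficient and Cxcr6-intact arrays (vertical axis, log2, bars are SE) for the 54 tested neighbours of Cxcr6 on chromosome 9, by their order from Cxcr6 (horizontal axis, number of tested genes). Cdcp1, 8 tested genes before Cxcr6, is the 1 called gene, at -1.001 ± 0.10.

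Over 34 lists chosen for liver programs and cell types, 12 of 701 tested entries were called, against 0.578% of all genes tested. Some genes stand in more than 1 list, and the 12 entries are 11 genes of 639. The number called was 0 or 1 in all but 2 lists, the fatty acid list with 4 and the strain loci with 2. Nrf2 targets, the genes of the antioxidant response, had the highest median of the program lists, at 0.51 against 0.01 over all genes. Of 27 tested, 24 had a positive difference and 0 were called. The nearest to a call was Cbr1, a carbonyl reductase gene (1.08 ± 0.27, adjusted p = 0.123), followed by Nqo1 (1.15 ± 0.30, adjusted p = 0.138) and Gsta4 (0.91 ± 0.25, adjusted p = 0.152), each with a larger difference with Nemo deleted (1.72, 1.65 and 1.24) than with Nemo intact (0.30, 0.53 and 0.51). Without wildtype replicate 2, 4 members were called. The median without wildtype replicate 1 was 0.32, and its Nemo-intact value was then -0.01, against 0.32 with both arrays.

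Acute-phase genes were the list with the lowest median. Of 29 tested, 27 had a negative difference, the median was -0.36, and Orm2 was the 1 called. The values of Saa1, a serum amyloid gene, were 11.02 and 12.50 in wildtype, 15.90, 13.38 and 15.14 in Nemo KO, 11.00, 10.57 and 11.23 in Cxcr6 KO and 11.55, 10.96 and 11.64 in double KO. The high values were those of Nemo KO, and the average difference of -2.27 ± 0.59 did not pass (adjusted p = 0.138). It was -3.43 with Nemo deleted and -0.83 with Nemo intact. The haptoglobin gene Hp (-0.40 ± 0.13, adjusted p = 0.216) and the pentraxin gene Apcs (-0.87 ± 0.22, adjusted p = 0.128) also had negative differences that did not pass.

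For several lists the 2 Nemo states had medians of opposite sign, so that their average describes neither. Cholesterol synthesis genes had a median of 0.95 with Nemo intact and -0.16 with Nemo deleted, although all 18 tested members had a positive average and 0 were called. Without wildtype replicate 1 the Nemo-intact median was 0.24, and without wildtype replicate 2 it was 1.66. Cell cycle genes had a median of -0.55 with Nemo intact and 0.59 with Nemo deleted. The first value was -1.32 without wildtype replicate 1 and 0.15 without wildtype replicate 2. Male-biased liver genes had a median of -0.22 (-0.50 with Nemo deleted, 0.42 with Nemo intact), with Selenbp2 the 1 called of 25. Their Nemo-intact median was 0.89 without wildtype replicate 1 and 0.02 without wildtype replicate 2, where the average median was -0.43. Female-biased liver genes had a median of 0.12 (0.56 with Nemo deleted, -0.06 with Nemo intact), with Acot3 the 1 called of 25. Without wildtype replicate 1 the Nemo-intact median of the female-biased list was -0.73, and without wildtype replicate 2 it was 0.50. Steroid dehydrogenase and carbonyl reductase genes kept a positive median in both states (0.24 and 0.30), with Hsd3b3 the 1 called of 26 (3 called and an average median of 0.15 without wildtype replicate 2, against 0.35 over all arrays), while the bile acid transformation gene Akr1d1 did not pass (1.32 ± 0.27, adjusted p = 0.074).

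**Figure D5:**
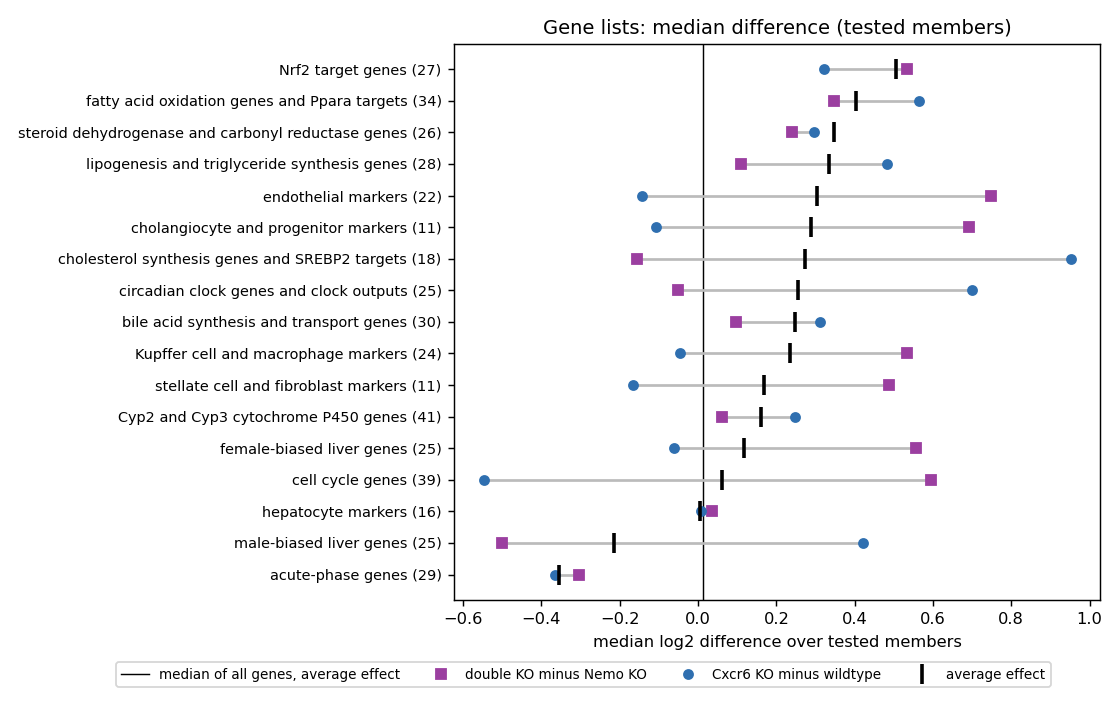
Median log2 difference over the tested members (horizontal axis) of 17 gene lists, with the number tested in brackets, for the average effect (black bar), double KO minus Nemo KO (square) and Cxcr6 KO minus wildtype (circle). Nrf2 targets lie farthest to the right at 0.51 and acute-phase genes farthest to the left at -0.36 in the average effect, and the cholesterol, cell cycle and endothelial lists have squares and circles on opposite sides of 0.

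Markers of endothelial, Kupffer, stellate and bile duct cells had their highest array means in double KO. All 22 tested endothelial markers had a positive average difference, with a median of 0.30, of which 0.75 was seen with Nemo deleted and -0.14 with Nemo intact, and 0 were called. Kupffer cell and macrophage markers had a median of 0.24 over 24 genes (0.53 and -0.05), stellate cell markers 0.17 over 11 (0.49 and -0.17), and cholangiocyte markers 0.29 over 11 (0.69 and -0.11). The Nemo-intact macrophage median was -0.45 without wildtype replicate 1 and 0.38 without wildtype replicate 2. Without wildtype replicate 2 the average medians were 0.50 for macrophage, 0.34 for stellate cell and 0.49 for cholangiocyte markers, with 1 cholangiocyte marker called, and without wildtype replicate 1 that of macrophage markers was 0.15. By array, the macrophage list had a mean of 6.49 to 7.55 in wildtype, 7.21 to 8.38 in Nemo KO, 6.81 to 7.10 in Cxcr6 KO and 7.76 to 8.47 in double KO. Hepatocyte markers had a median of 0.00. Of T cell, B cell and NK or NKT cell markers only 4, 2 and 6 reached the level needed for testing, and 0 were called. In such bulk samples, fewer cells of a type and less RNA per cell cannot be told apart. The part of these cells in the differences of named genes was not tested.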

How the data were processed

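Hepatocyte RNA from 11 samples was hybridised to expression arrays, from 300 ng of total RNA each. The authors deposited log2 signals, 1 per transcript cluster and array, made with Affymetrix Expression Console, RMA and Transcriptome Analysis Console per the submitters' processing notes; versions and the genome build are not given in the sources used here. Of 65956 rows, 30604 have 1 gene symbol, 2146 several and 33206 none in the platform annotation. Rows with 1 symbol were updated through gene identifiers against RefSeq GRCm38.p6 (30294 matched, 827 symbols changed), and for each of 30142 genes the row with the highest mean was kept (355 genes had several rows). Genes were tested where the highest genotype mean reached the median row mean, 5.27, which left 18337.

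The log2 values were modelled by Cxcr6 state plus Nemo state in limma 3.58.1 (R 4.3.3; functions lmFit and eBayes), which left 8 residual degrees of freedom; the prior held 2.13. Contrasts within a Nemo state and their difference, the interaction, came from a mean per genotype with 7 residual degrees of freedom. All tests are two-sided, with Benjamini-Hochberg adjustment over the 18337 genes, and errors are standard errors. Arrays carry no read depth, and their number limits the precision.

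Chromosomes came from the platform's row names, and gene order from RefSeq starts, for 18056 tested genes. The upstream sequences were aligned with Biopython 1.88. The genes named were the 15 highest and 15 lowest called differences (predicted models, small RNAs and olfactory receptors left out), called genes near Cxcr6, in dense windows or in lists, and a few fixed genes; others are marked. The comparison, lists and named genes were chosen with earlier results of these data known. The labels do not say whether replicate numbers pair samples, and the arrays do not settle it. Same-numbered arrays of different genotypes had deviations correlated at -0.27 to 0.28 (median 0.06), and 6 of 15 pairs exceeded 0.1. Arrays with other numbers had -0.42 to 0.29 (median 0.01), and 7 of 30 pairs exceeded 0.1. Alternatives covered scaling, filters, variance models, array weights, the replicate block and each array left out.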

Additional observations from a re-analysis of the deposited data

Results flagged for a closer look

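Probe sets without a gene symbol were not used in the comparison, and they carried a difference between the Cxcr6-deficient and Cxcr6-intact arrays. In a fit of all probe sets above the same level, chosen after seeing the data, 274 of 15603 probe sets with no symbol (1.76%) were called by limma, 29 higher and 245 lower, against 112 higher and 35 lower of 18618 with 1 symbol (0.79%). Many of these repeat each other: the 274 hold 109 distinct profiles, and 63 probe sets share 1 of them. By chromosome, the no-symbol probe sets called were 11 of 454 (2.42%) on chromosome 18, 18 of 733 (2.46%) on 13, 20 of 668 (2.99%) on X and 5 of 91 (5.49%) on Y. Chromosomes 8 and 17, with no called gene among those with a symbol, had 18 of 806 (2.23%) and 13 of 647 (2.01%). Distinct profiles were not counted by chromosome, so repeats can enter these shares. Probe sets with several symbols gave 38 calls of 1333, in 10 distinct profiles. The cause was not tested.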

How the results depend on the processing

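The number of called genes was 30 with no Nemo term, 45 with the replicate block, 180 with array weights and 459 of 35554 when all probe sets of the table were fitted, against 106 as reported, and it ranged from 35 to 165 when each array was left out. Of the 45 calls under the block, 43 were among the 106. Whether the replicate numbers pair the samples is not known. The count was 80 to 144 under the other alternatives, namely states weighted equally, a variance trend, robust variance, both scalings, both filters and the mean of a gene's values. Median centring and quantile normalization gave 111 higher and 18 lower and 118 higher and 18 lower genes. The share called on chromosome 18 was 2.331% as reported, 1.399% with no Nemo term, 0.932% with the block, 1.056% with no filter, 4.425% with the filter 1 log2 unit higher, and 0.932% to 2.797% with each array left out. The number called over all genes differed between these fits too. It was 80 of 30142 with no filter and 119 of 12920 with the filter 1 log2 unit higher. The interaction count of 0 ranged from 0 to 230 with each array left out. Fitted on own arrays only, the counts within the Nemo states were 11 in place of 109 and 0 in place of 47. The difference of the Cxcr6 gene, not called, turned positive with array weights (0.0235), median centring (0.0151), quantile normalization (0.0172), without double KO replicate 2 (0.0146) and without Cxcr6 KO replicate 3 (0.00779), its range with each array left out being -0.0951 to 0.0146. Of 966 values for 44 named genes, 746 kept direction and side of the threshold, 214 lost the call, 1 (Akr1c18, states weighted equally) gained it and 5 changed sign. In all 22 alternatives 23 genes stayed called, among them Clec2h, Acpp, Hsd3b3, Selenbp1, Selenbp2, Pik3c2a, Bcl2l13, Ptpmt1, Trim12a, Ulk2 and Cdcp1. The cause of these shifts was not tested. Signals near the array median or the ceiling understate differences.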
